A study of Mus musculus with 11 samples.

Results

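The 10 genes described here are Asns, Psat1, Phgdh, Shmt2, Mthfd2, Cbs, Cth, Ddit3, Trib3 and Chac1, which cover the amino acid arm of the ATF4 response and the transsulfuration pathway. They were listed by name and found by matching the RefSeq accessions of the array probes to mouse gene symbols. All 10 were on the array, through 13 probes, and all 10 were among the 16279 genes that passed the filter on dim probes. RNA came from unsorted mouse embryonic stem (ES) cells of the 129/Ola background, kept for at least 3 passages in 1 of 3 media and measured on Agilent one-colour arrays, 1 array per sample. Serum/LIF (3 arrays) is the standard medium with serum, and KOSR/LIF (3 arrays) uses knockout serum replacement. The third, 2i/LIF (5 arrays), carries small-molecule blockers of the kinases MEK and GSK3. KOSR/LIF and 2i/LIF are both serum-free. In 2i/LIF against serum/LIF, the lack of serum and the blockers therefore cannot be told apart. Nor can the blockers and the lack of knockout serum replacement in 2i/LIF against KOSR/LIF. LIF, leukaemia inhibitory factor, was in every medium, so no group was without it. The samples came from 3 lines, E14, HVJu5.1 and HVJu9.3. The titles and the source names give different lines for 2i/LIF replicates 1 to 4, and nothing in the labels tells whether samples of the same line in 2i/LIF were separate cultures, so the p-values reflect array-to-array spread that may be partly technical.

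ATF4 is a transcription factor whose protein is made preferentially when kinases such as GCN2 or PERK phosphorylate the translation factor eIF2alpha, for example when an amino acid is scarce or the endoplasmic reticulum is under stress. It dimerises with C/EBP proteins, binds composite C/EBP-ATF elements, and switches on genes for amino acid synthesis, amino acid uptake and tRNA charging, together with stress regulators such as Ddit3, Trib3 and Chac1. Transsulfuration makes cysteine from homocysteine by 2 enzymes, Cbs and then Cth, and so feeds glutathione synthesis. Message levels do not report ATF4 protein.

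The core of the C/EBP-ATF element, TGATGNAA or TTNCATCA on the other strand, was searched in RefSeq promoter windows of build GRCm38.p6, from 250 bases before to 50 after a start. Of 32851 windows, 1304 (3.97%) held a match. Of the 10 genes, 9 had a window, and 3 of these 9 held a match, each of them 1: Asns 23 bases before the start, Chac1 193 bases before, and Trib3 15 bases after. Cth had no entry. The windows of Cbs, Psat1, Phgdh, Shmt2, Mthfd2 and Ddit3 held none, which says only that these letters are not in this window. The 250 bases before the start are shown for the 2 genes with an upstream match and for Cbs, which had the largest change of the 10 genes in both comparisons of 2i/LIF. They lie at chr6:7693210-7693459 (minus strand) for Asns, chr2:119350992-119351241 (plus strand) for Chac1 and chr17:31637206-31637455 (minus strand) for Cbs. Each is written 5′ to 3′ along the gene, and capitals mark the match.
Asns: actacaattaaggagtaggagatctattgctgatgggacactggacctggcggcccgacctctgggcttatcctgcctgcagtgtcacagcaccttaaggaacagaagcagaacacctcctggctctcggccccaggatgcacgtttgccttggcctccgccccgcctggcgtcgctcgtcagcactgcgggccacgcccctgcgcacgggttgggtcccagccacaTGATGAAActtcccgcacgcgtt
Chac1: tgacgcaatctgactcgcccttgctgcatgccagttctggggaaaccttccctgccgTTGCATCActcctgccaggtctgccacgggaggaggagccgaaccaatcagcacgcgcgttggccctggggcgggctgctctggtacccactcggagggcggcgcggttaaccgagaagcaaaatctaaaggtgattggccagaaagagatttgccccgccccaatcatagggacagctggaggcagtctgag
Cbs: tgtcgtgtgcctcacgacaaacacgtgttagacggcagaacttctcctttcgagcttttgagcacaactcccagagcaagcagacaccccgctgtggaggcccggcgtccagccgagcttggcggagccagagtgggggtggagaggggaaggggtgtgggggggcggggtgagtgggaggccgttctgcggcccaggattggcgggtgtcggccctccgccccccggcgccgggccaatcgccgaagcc

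Levels are log2 intensities relative to the array's 75th percentile, so 1 unit is a 2-fold difference and 0 is the 75th percentile. They can be compared between arrays for 1 probe, not between probes. A gene was called when its adjusted p was below 0.05 (limma over all 11 arrays, Benjamini-Hochberg over the 16279 genes). Every probe of the 10 genes was well above background on all 11 arrays and none was saturated. KOSR/LIF replicate 3 stood apart. Its 75th percentile was 65.3 intensity units against 176 to 538 on the others, and 43.7% of its probes were well above background against 53.7% to 72.6%. The deposited value table also differed from the scanner files. Its columns for 2i/LIF replicates 1 and 4 each correlated best with the other's scanner file (0.993 and 0.991, against 0.963 and 0.969 with their own), as did those of KOSR/LIF replicates 1 and 2. The table's KOSR/LIF replicate 3 column correlated at 0.917 with its own file and at most at 0.974 with any file. Both exchanges are within a medium and leave the groups as they are. Called results of the 10 genes that involve KOSR/LIF are given with and without replicate 3 and from the table. The arrays were scanned on 3 days. Day 1 held 2 arrays of each medium, day 2 held 2i/LIF replicate 2 and KOSR/LIF replicate 3, and day 3 held serum/LIF replicate 3 and 2i/LIF replicates 1 and 5. All 8 ES cell markers checked, among them Pou5f1 and Sox2, were well above background on every array. Summed on the linear scale they reached 430 to 580 on KOSR/LIF arrays, below the 646 to 876 of serum/LIF and the 626 to 903 of 2i/LIF. With all arrays, 3 of the 8 were called higher in 2i/LIF than in KOSR/LIF, where 5.95% of all genes were. Against serum/LIF, 1 was called lower in 2i/LIF and 1 in KOSR/LIF, where 9.98% and 2.21% of all genes were called lower. Markers of other cell types differed between media as well, though the summed neural levels overlapped between all 3. For 7 trophoblast markers the summed linear level ranged over 87.3 to 178 on serum/LIF arrays, 12.4 to 21.0 on 2i/LIF arrays and 14.6 to 33.2 on KOSR/LIF arrays. In the same order of media, that of 8 primitive endoderm markers was 2.41 to 3.75, 0.326 to 0.802 and 1.85 to 14.4. That of 7 fibroblast markers was 3.72 to 13.4, 1.87 to 2.53 and 7.11 to 12.4, with Postn not passing the filter. That of 6 neural markers was 6.39 to 8.89, 3.95 to 7.16 and 4.05 to 9.63. Called lower in 2i/LIF than in KOSR/LIF were 7 primitive endoderm, 3 fibroblast, 2 neural and 1 trophoblast markers, where 8.72% of all genes were. Of these 4 lists, 0 markers were called higher there. The part of these marker differences in the results below was not tested, and in bulk RNA fewer cells of a type and less RNA per cell cannot be told apart.

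Asns and Cbs rose in 2i/LIF against serum/LIF, and Asns, Cbs, Cth and Psat1 were higher in 2i/LIF than in KOSR/LIF, Psat1 only with KOSR/LIF replicate 3 included. The stress regulators Ddit3, Trib3 and Chac1 and the genes Phgdh, Shmt2 and Mthfd2 were called in none of the 3 comparisons. Between 2i/LIF and serum/LIF, 2 of the 10 genes were called, where 16.7% of all genes were. Both were higher in 2i/LIF, where 6.74% of all genes were called higher and 9.98% lower. The arrays of these 2 genes alone did not overlap, against 25.7% of all genes without overlap and 11.7% higher without overlap (14% lower). Between KOSR/LIF and serum/LIF, 0 of 10 were called by limma, where 4.58% of all genes were (2.37% higher and 2.21% lower). There, 3 of the 10 (Asns, Psat1 and Cth) had an unadjusted p below 0.05. The share of all genes below that value is not given, so such counts, here and below, have no background. When eBayes used a trend and robust estimation, 2 (Psat1 and Cth) were called. Of all genes tested, 810 were called that way, against 745 without the trend and robust estimation. For 5 of the 10 (Asns, Psat1, Cbs, Cth and Trib3) the KOSR/LIF and serum/LIF arrays did not overlap, all lower in KOSR/LIF, where 28.4% of all genes did not overlap, 16% lower and 12.4% higher.

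The contrast of 2i/LIF with KOSR/LIF had the most calls. It called 4 of 10, all higher in 2i/LIF, where 14.7% of all genes were called, 5.95% higher and 8.72% lower. The arrays of these 4 did not overlap, against 19.6% of all genes without overlap (9.04% higher and 10.6% lower). Without KOSR/LIF replicate 3 the 3 comparisons called 2, 0 and 3 of the 10 genes, where 19.7%, 3.88% and 12% of all genes were called. The deposited table gave 2, 0 and 3, where 21.4%, 4.37% and 17% were called. Within scan day 1 they were 2, 1 and 3, where 14.6%, 4.21% and 12.7% were called. Asns, Cbs and Cth made up the 3 in each case. By probe, 2, 0 and 6 of 13 were called, where 15.9%, 4.13% and 13.6% of the 21274 named probes were. The median log2 change of the 10 genes was 0.33, -0.49 and 0.67 in the 3 comparisons, against 0.03, -0.03 and 0.02 over all genes tested. Without KOSR/LIF replicate 3 the medians of the comparisons with KOSR/LIF were -0.31 (against serum/LIF) and 0.53 (2i/LIF against KOSR/LIF), and in the deposited table -0.22 and 0.42. The 3 comparisons share their arrays and are not independent of each other.

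**Figure D1:**
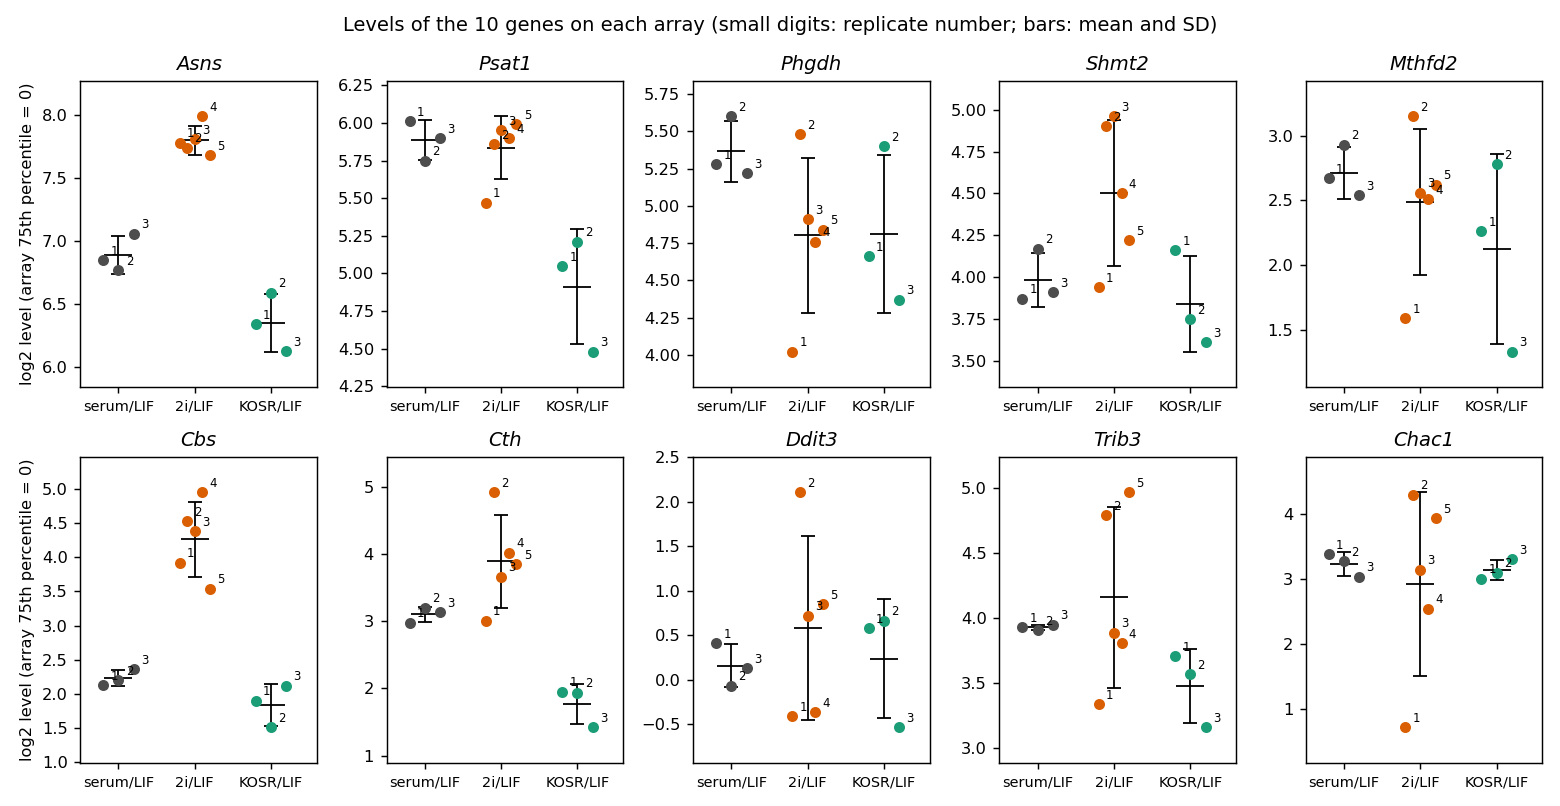
Log2 level of each of the 10 genes on each of the 11 arrays, by medium, with the mean and SD in black and the replicate number beside each point. The 5 2i/LIF points of Asns and Cbs lie above every serum/LIF and KOSR/LIF point, while those of Chac1 run from 0.72 to 4.30.

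Asns encodes asparagine synthetase, which makes asparagine from aspartate and glutamine and is a classic target of ATF4. Its level was 6.85, 6.77 and 7.06 on the serum/LIF arrays, 7.78, 7.74, 7.81, 7.99 and 7.68 on the 2i/LIF arrays, and 6.34, 6.59 and 6.13 on the KOSR/LIF arrays. No array of one medium overlapped with those of another, and the order was 2i/LIF, then serum/LIF, then KOSR/LIF. The change in 2i/LIF against serum/LIF was 0.91 ± 0.19 (log2, SE), a 1.88-fold rise, with an adjusted p of 0.00654 by limma. Against KOSR/LIF it was 1.45 ± 0.19, or 2.73-fold, with an adjusted p of 0.000499. Without KOSR/LIF replicate 3 that change was 1.34, adjusted p 0.00157 by limma, and in the deposited table it was 1.21, adjusted p 0.000849. The KOSR/LIF and serum/LIF arrays did not overlap either, but the change of -0.54 did not pass (adjusted p 0.204, interval -1.01 to -0.06), and was -0.43 without replicate 3 and -0.29 in the deposited table. By scan day, 2i/LIF against serum/LIF gave 1.09 on day 1, adjusted p 0.0187 by limma, and 0.67 on day 3, adjusted p 0.422, where serum/LIF had 1 array. The 2i/LIF arrays were unusually close together for Asns. Their SD was 0.12, at percentile 1.55 of the SDs of all genes tested, against a median SD of 0.41. Its promoter, printed above, holds the TGATGAAA match.

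Cbs encodes cystathionine beta-synthase, which joins homocysteine and serine in the first step of transsulfuration. Its level was 2.13, 2.20 and 2.36 in serum/LIF, 3.92, 4.52, 4.38, 4.95 and 3.54 in 2i/LIF, and 1.90, 1.51 and 2.12 in KOSR/LIF. The lowest 2i/LIF array lay 1.18 above the highest serum/LIF array and 1.42 above the highest KOSR/LIF array. The 2i/LIF change was 2.03 ± 0.31 against serum/LIF, 4.09-fold, with an adjusted p of 0.000757 by limma. Against KOSR/LIF it was 2.42 ± 0.31, 5.34-fold, with an adjusted p of 0.00036. Without KOSR/LIF replicate 3 this was 2.56 (adjusted p 0.00112 by limma), and from the deposited values 2.43 (adjusted p 0.000267). Within scan day 1 the 2 changes were 2.50 and 2.96, adjusted p 0.00539 and 0.00537 by limma, and within day 3 the change against serum/LIF was 1.37 (adjusted p 0.134). KOSR/LIF and serum/LIF arrays were apart by only 0.01, with a change of -0.38 (adjusted p 0.578, interval -1.13 to 0.36), -0.52 without replicate 3.

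Cth encodes cystathionine gamma-lyase, the second enzyme, which releases cysteine from cystathionine. Its brighter probe read 2.98, 3.20 and 3.13 in serum/LIF, 3.01, 4.92, 3.66, 4.02 and 3.85 in 2i/LIF, and 1.95, 1.94 and 1.42 in KOSR/LIF. All KOSR/LIF arrays were below all others, while 2i/LIF replicate 1 fell within the serum/LIF range. The 2i/LIF level was 2.12 ± 0.35 above KOSR/LIF, 4.35-fold, with an adjusted p of 0.002 by limma. It was 1.95 without KOSR/LIF replicate 3 (adjusted p 0.0106 by limma), 1.82 in the table (adjusted p 0.00698) and 1.89 within scan day 1 (adjusted p 0.00738). Against serum/LIF, the 2i/LIF change was 0.79 (adjusted p 0.178, interval 0.01 to 1.56) and the KOSR/LIF change -1.33 (adjusted p 0.0856, interval -2.20 to -0.46). The KOSR/LIF value was -1.16 without replicate 3 (adjusted p 0.201 by limma) and -1.04 in the deposited table (adjusted p 0.223). It passed within scan day 1 (-1.15, adjusted p 0.048 by limma) and when 2i/LIF replicate 2 was left out of the fit (adjusted p 0.0266), the only 1 of 11 fits without 1 array in which it passed. The other probe of Cth gave 2.37 ± 0.40 for 2i/LIF against KOSR/LIF, with an adjusted p of 0.00229 by limma over the 21274 named probes. The 2 transsulfuration enzymes both stood above KOSR/LIF in 2i/LIF, and only Cbs was called against serum/LIF. Whether their changes against serum/LIF differ from each other was not tested.

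Psat1 encodes phosphoserine aminotransferase, the middle enzyme of serine synthesis. Its brighter probe read 6.01, 5.75 and 5.90 in serum/LIF, 5.47, 5.86, 5.95, 5.90 and 5.99 in 2i/LIF, and 5.05, 5.21 and 4.48 in KOSR/LIF. The serum/LIF and 2i/LIF arrays overlapped, and all 3 KOSR/LIF arrays were below both. The 2i/LIF level was 0.92 ± 0.23 above KOSR/LIF, 1.89-fold, with an adjusted p of 0.0172 by limma. This call was lost without KOSR/LIF replicate 3 (0.71, adjusted p 0.0518 by limma), in the deposited table (0.45, adjusted p 0.167) and within scan day 1 (0.79, adjusted p 0.0501). KOSR/LIF against serum/LIF was -0.97 (adjusted p 0.053, interval -1.52 to -0.42) -0.75 without replicate 3 (adjusted p 0.105 by limma) and -0.51 in the table (adjusted p 0.268). The dimmer probe of Psat1 gave 1.37 ± 0.41 for 2i/LIF against KOSR/LIF (adjusted p 0.0475 by limma over named probes), and 0.83 without replicate 3 (adjusted p 0.169).

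Phgdh encodes phosphoglycerate dehydrogenase, the first enzyme of serine synthesis. It read 5.28, 5.60 and 5.22 in serum/LIF, 4.02, 5.48, 4.91, 4.76 and 4.84 in 2i/LIF, and 4.66, 5.40 and 4.37 in KOSR/LIF. In 2i/LIF, 1 array of 5 (replicate 2) lay above the serum/LIF mean. The changes against serum/LIF were -0.56 in 2i/LIF (adjusted p 0.322 by limma, interval -1.28 to 0.16) and -0.56 in KOSR/LIF (adjusted p 0.459, interval -1.36 to 0.25), where it was -0.34 without replicate 3. The difference between 2i/LIF and KOSR/LIF was -0.01 (interval -0.73 to 0.71), -0.23 without replicate 3. The other probe of Phgdh gave -0.51, -0.61 and 0.10 in the same order and was not called.

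Shmt2 and Mthfd2 encode mitochondrial serine hydroxymethyltransferase and a mitochondrial methylenetetrahydrofolate dehydrogenase, which pass the one-carbon unit of serine to folate. Shmt2 read 3.87, 4.17 and 3.91 in serum/LIF, 3.94, 4.90, 4.96, 4.50 and 4.22 in 2i/LIF, and 4.16, 3.75 and 3.61 in KOSR/LIF. All 5 2i/LIF arrays were above the KOSR/LIF mean and 4 of 5 above the serum/LIF mean. Its changes were 0.52 (2i/LIF against serum/LIF, adjusted p 0.256 by limma, interval -0.07 to 1.11) and 0.66 (against KOSR/LIF, adjusted p 0.136, interval 0.07 to 1.26). The second was 0.55 without KOSR/LIF replicate 3 (adjusted p 0.304 by limma), 0.45 in the table (adjusted p 0.316) and 0.86 with scan day as a block (adjusted p 0.0395). Mthfd2 read 2.67, 2.93 and 2.54 in serum/LIF, 1.59, 3.15, 2.56, 2.51 and 2.62 in 2i/LIF, and 2.26, 2.78 and 1.33 in KOSR/LIF. Its media overlapped in every comparison. The changes were -0.23 (interval -1.05 to 0.59) in 2i/LIF and -0.59 (interval -1.51 to 0.32) in KOSR/LIF against serum/LIF, with adjusted p of 0.793 and 0.487 by limma. The KOSR/LIF value was -0.20 without replicate 3 and -0.15 in the table. The 0.36 between 2i/LIF and KOSR/LIF (adjusted p 0.584) was -0.03 without KOSR/LIF replicate 3 and -0.08 in the table.

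Ddit3 encodes CHOP, a C/EBP-family factor made under prolonged stress. It read 0.41, -0.07 and 0.13 in serum/LIF, -0.41, 2.11, 0.72, -0.37 and 0.85 in 2i/LIF, and 0.58, 0.66 and -0.54 in KOSR/LIF. The 2i/LIF arrays ran from -0.41 to 2.11, and the arrays of the other media lay between -0.54 and 0.66. The change in 2i/LIF against serum/LIF was 0.42 (adjusted p 0.713 by limma, interval -0.73 to 1.57).

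Trib3 encodes a pseudokinase that is induced by ATF4 and CHOP and restrains both. It read 3.93, 3.91 and 3.95 in serum/LIF, 3.34, 4.79, 3.89, 3.81 and 4.97 in 2i/LIF, and 3.71, 3.57 and 3.16 in KOSR/LIF. The serum/LIF arrays were almost level with each other (SD 0.02), KOSR/LIF lay wholly below them, and 2i/LIF lay on both sides. The changes were 0.23 in 2i/LIF (adjusted p 0.778 by limma, interval -0.54 to 1.00) and -0.45 in KOSR/LIF (adjusted p 0.576, interval -1.31 to 0.42) against serum/LIF, and 0.68 between 2i/LIF and KOSR/LIF (adjusted p 0.249). Without KOSR/LIF replicate 3 the last 2 were -0.29 and 0.51, and in the table -0.14 and 0.36.

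Chac1 encodes a glutathione-degrading gamma-glutamylcyclotransferase and carries the other upstream match printed above. It read 3.39, 3.28 and 3.04 in serum/LIF, 0.72, 4.30, 3.15, 2.55 and 3.94 in 2i/LIF, and 3.01, 3.10 and 3.31 in KOSR/LIF. Serum/LIF and KOSR/LIF were close together, and the 2i/LIF arrays lay on both sides of them. The change in 2i/LIF against serum/LIF was -0.30 (adjusted p 0.851 by limma, interval -1.69 to 1.09), and it was 0.25 without 2i/LIF replicate 1 and 0.32 in the deposited table (adjusted p 0.616). In that table the column labelled replicate 4, the one that best matched the scanner file reading 0.72, held 3.59, so the table did not show that low value. Its lowest 2i/LIF value was 2.35. KOSR/LIF differed from serum/LIF by -0.10 (interval -1.65 to 1.46), -0.18 without replicate 3.

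**Figure D2:**
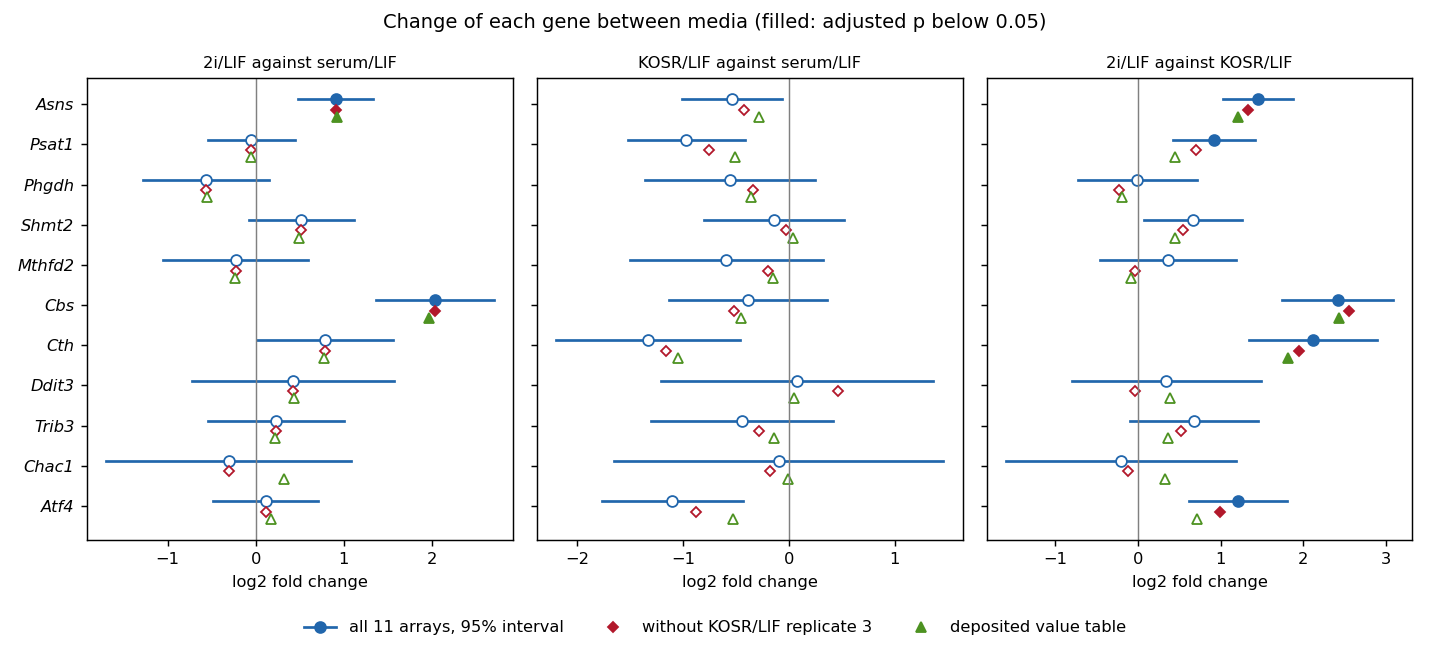
Log2 fold change of the 10 genes and of Atf4 in the 3 comparisons, with 95% intervals over all 11 arrays (circles), without KOSR/LIF replicate 3 (diamonds) and from the deposited value table (triangles), filled where the adjusted p was below 0.05. Asns, Cbs and Cth stayed called in 2i/LIF against KOSR/LIF in all 3 versions, while Psat1 and Atf4 did not.

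The 10 genes did not vary alike within 2i/LIF. The SD over the 5 arrays was 1.41 for Chac1 (percentile 97.7 of all genes tested), 1.04 for Ddit3 (percentile 92.7), 0.69 for Trib3 (79.8) and 0.69 for Cth (79.7), but 0.21 for Psat1 (11.6). The Chac1 value includes the 0.72 of 2i/LIF replicate 1, which the deposited table did not show, its lowest 2i/LIF value being 2.35. After centring each gene on its own mean over the 11 arrays, the mean of the 10 genes was 0.99 on 2i/LIF replicate 2, where 4 of them had their highest level. It was 0.42, 0.28 and 0.47 on 2i/LIF replicates 3, 4 and 5, and -0.45 on replicate 1, where 2 had their lowest. Serum/LIF arrays lay between -0.06 and -0.01. KOSR/LIF lay at -0.42, -0.33 and -0.84, and on its replicate 3, the dim array, 7 of the 10 had their lowest level. The array highest over the 10 genes and the lowest were thus both scanned on day 2. Their difference was 3.50 for Cth, 2.65 for Ddit3, 2.40 for Cbs, 1.82 for Mthfd2, 1.62 for Trib3 and 1.60 for Asns. It was 1.38 for Psat1, 1.29 for Shmt2, 1.11 for Phgdh and 0.99 for Chac1, with 1 array on each side and no test.

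**Figure D3:**
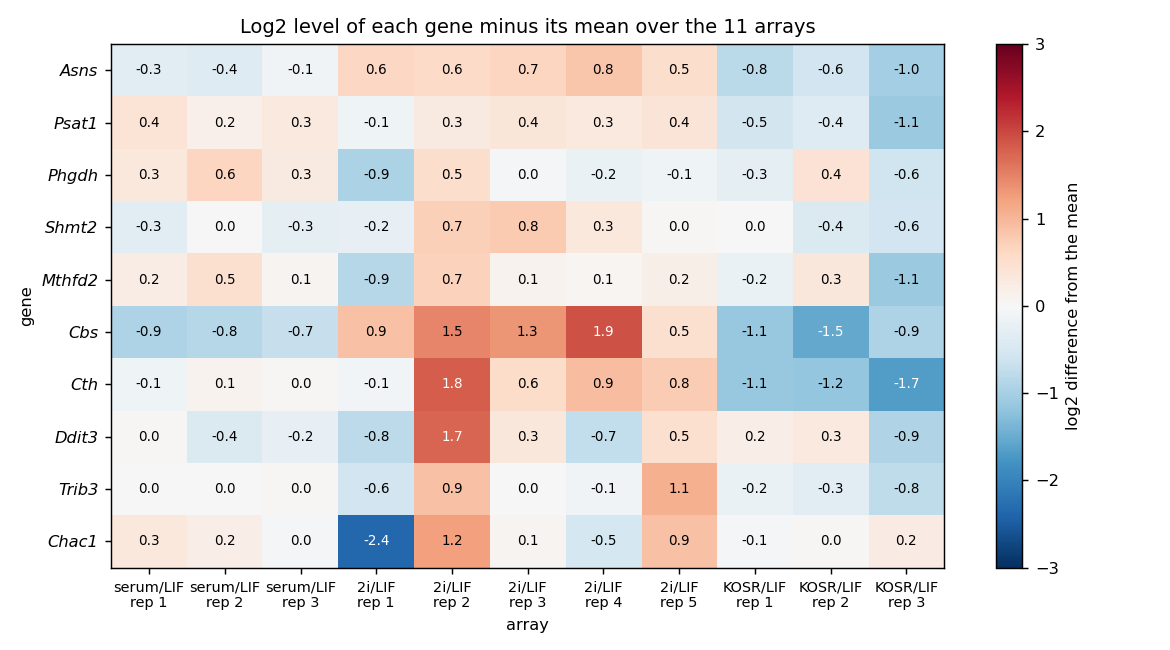
Log2 level of each gene (rows) minus its mean over the 11 arrays (columns), red for higher and blue for lower. The 2i/LIF replicate 2 column is above 0 for all 10 genes, and the KOSR/LIF replicate 3 column is below 0 for 9 of them.

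Over the 11 arrays, the centred levels of Cst3, Gk, Gnai2 and Ntf5 were the nearest to those of Asns, of 16278 other genes, with root mean square differences of 0.18 to 0.19 (log2). Among the other genes of the set, Psat1 ranked 620, Shmt2 774 and Cth 2051, and Atf4 ranked 859. The rest were farther: Trib3 3258, Cbs 4328, Mthfd2 6421, Phgdh 9108, Ddit3 9477 and Chac1 12952. Nearest to Cth were Gpt2 (0.31), Eef2k (0.32), Lrrc15, Gstm2 and Cd109. Asns ranked 70, Atf4 114, Psat1 251, Trib3 382, Shmt2 455 and Cbs 500. Farther from Cth lay Mthfd2 (1147), Ddit3 (2374), Phgdh (4081) and Chac1 (9295). The differences were not scaled for the size of a gene's changes, so a gene with the same order of media but larger changes also ranks farther. These ranks describe 11 arrays that share media and depth.

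Atf4 itself read 7.03, 7.64 and 6.93 in serum/LIF, 6.89, 7.28, 7.47, 7.25 and 7.67 in 2i/LIF, and 6.46, 6.19 and 5.65 in KOSR/LIF. The KOSR/LIF arrays were below all others, and 2i/LIF overlapped serum/LIF. Its message was 1.22 ± 0.27 higher in 2i/LIF than in KOSR/LIF, 2.32-fold, with an adjusted p of 0.0103 by limma. This was 0.99 without KOSR/LIF replicate 3 (adjusted p 0.0396 by limma), but 0.71 in the table (adjusted p 0.0645) and 1.04 within scan day 1 (adjusted p 0.0648). The change in 2i/LIF against serum/LIF was 0.11 (adjusted p 0.87 by limma, interval -0.48 to 0.71), and in KOSR/LIF -1.10 (adjusted p 0.0637, interval -1.76 to -0.44). The KOSR/LIF value was -0.88 without replicate 3 (adjusted p 0.153 by limma) and -0.53 in the table (adjusted p 0.34). The other probe of Atf4 gave 1.92 ± 0.47 for 2i/LIF against KOSR/LIF (adjusted p 0.0192 by limma over named probes), 1.19 without KOSR/LIF replicate 3 (adjusted p 0.036) and 1.01 in the table (adjusted p 0.0332).

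Of 107 further genes in 8 lists around the pathway, Atf4 included, 104 were tested. Slc7a11 (the cystine transporter, well above background on 0 arrays), Fgf21 (on 2 arrays) and Pycr1 were not. Against serum/LIF, 11 rose and 6 fell in 2i/LIF, in KOSR/LIF 1 rose and 2 fell, and in 2i/LIF against KOSR/LIF 15 were higher and 1 (Csad, -0.67 ± 0.20, named because it was the only one) was lower. Without KOSR/LIF replicate 3 the last count was 9 higher and 0 lower, and with the deposited values 11 and 4. The shares of all genes called, 16.7%, 4.58% and 14.7%, are the background for these counts. By direction, 6.74% were higher and 9.98% lower in the first comparison, 2.37% and 2.21% in the second, and 5.95% and 8.72% in the third. In the third, 12% of all genes were called without replicate 3 and 17% with the deposited values. With all arrays, the same shares are the background for the counts per list below.

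Of 9 transcription factors around ATF4, 2 rose in 2i/LIF against serum/LIF. They were Nupr1, a stress-induced chromatin protein (1.94 ± 0.39, adjusted p 0.00444 by limma), and Batf2 (1.82 ± 0.48, adjusted p 0.0216), which was above background on only 2 of the 3 arrays of serum/LIF. Against KOSR/LIF, Nupr1 was 2.12 higher (adjusted p 0.0034 by limma, and 1.78 without replicate 3), and Batf2 (1.62, adjusted p 0.043) and Atf4 were also called. The Batf2 call against KOSR/LIF was lost without replicate 3 (1.48, adjusted p 0.134 by limma), in the table (1.03, adjusted p 0.0977) and with the normexp background correction (0.44, adjusted p 0.351), and 2 of the 3 arrays of KOSR/LIF had it well above background. Its call against serum/LIF was lost with normexp (0.77, adjusted p 0.0923 by limma). None of 7 genes for eIF2alpha, its kinases and its phosphatase subunits was called by limma in any comparison, and 0, 0 and 1 of them had an unadjusted p below 0.05. With a trend and robust estimation 0 were called.

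Among amino acid transporters, 10 were tested and 2 were called in 2i/LIF against serum/LIF, in opposite directions. Slc1a5, a glutamine carrier, rose by 1.49 ± 0.27 (adjusted p 0.00268 by limma). Slc38a2, which imports small neutral amino acids, fell by 1.62 on the log2 scale (adjusted p 0.0019 by limma). Slc38a2 was also the transporter that fell in KOSR/LIF against serum/LIF (-1.50 ± 0.32, adjusted p 0.0227 by limma, 0.0563 without KOSR/LIF replicate 3, and -0.99 with adjusted p 0.119 in the table). Slc7a1 and Slc1a5 were higher in 2i/LIF than in KOSR/LIF, and neither was called without replicate 3.

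None of 20 cytosolic aminoacyl-tRNA synthetases, which load tRNAs with amino acids, was called in 2i/LIF against serum/LIF by limma, 0 had an unadjusted p below 0.05, and 0 were called with a trend and robust estimation. Their median change was -0.05. In KOSR/LIF against serum/LIF the median was -0.43 (-0.27 without replicate 3 and -0.20 in the table), with 0 called by limma. Of the 20, 6 had an unadjusted p below 0.05, and 3 were called with a trend and robust estimation. That estimation called 810 of all genes tested in KOSR/LIF against serum/LIF, against 745 without it. Tars (0.93 ± 0.26) and Iars (0.81 ± 0.23) were called in 2i/LIF against KOSR/LIF, adjusted p 0.0302 and 0.0354 by limma, and not without KOSR/LIF replicate 3 (0.103 and 0.109). The median over the 20 in that comparison was 0.40, 0.26 without replicate 3 and 0.14 in the table.

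Of 16 tested serine, proline and one-carbon enzymes, 2 rose and 3 fell in 2i/LIF against serum/LIF. Aldh1l1, a folate dehydrogenase of the cytosol, rose by 2.06 ± 0.36 (adjusted p 0.00209 by limma), and Amt, part of the glycine cleavage system, by 1.18 ± 0.27 (adjusted p 0.00918). Mthfd2l, a mitochondrial relative of Mthfd2, fell by 2.21 on the log2 scale (adjusted p 0.00295 by limma). Gldc, the glycine-binding subunit of glycine cleavage, was lower than in serum/LIF in both other media. It fell by 1.00 in 2i/LIF (adjusted p 0.0175 by limma), and by 1.40 in KOSR/LIF (adjusted p 0.0187 by limma) and by 1.06 without replicate 3 (adjusted p 0.0197). Compared with KOSR/LIF, the 2i/LIF arrays had higher Aldh1l1 (2.24), Gpt2, a mitochondrial alanine transaminase (2.04 ± 0.43, adjusted p 0.0076 by limma), and Amt (1.31), and all 3 stayed called without replicate 3. Gpt2 was also the gene nearest to Cth in its levels over the arrays.

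Among 13 tested stress targets of ATF4 and CHOP, Gdf15, a secreted stress cytokine, rose by 2.14 ± 0.26 in 2i/LIF against serum/LIF (4.40-fold, adjusted p 0.0002 by limma) and Bbc3, the apoptosis protein PUMA, fell by 1.02 on the log2 scale (adjusted p 0.0211). Gdf15 was also 1.65 above KOSR/LIF (adjusted p 0.00139 by limma, and 1.73 without replicate 3). Of 14 endoplasmic reticulum chaperones and related genes such as Xbp1, Sdf2l1 alone was called in 2i/LIF against serum/LIF (0.99 ± 0.28, adjusted p 0.0291 by limma, and 0.0642 with normexp). In the other 2 comparisons 0 were called, each with 1 at an unadjusted p below 0.05 and 0 called with a trend and robust estimation. The deposited table called 1 higher in KOSR/LIF than in serum/LIF, and 2 lower in 2i/LIF than in KOSR/LIF. The median change of the 14 was -0.14 in 2i/LIF against serum/LIF.

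Of 15 other cysteine, glutathione and sulfide enzymes, 4 rose and 1 fell in 2i/LIF against serum/LIF. Cdo1, which oxidises cysteine towards taurine, rose by 2.71 ± 0.42 (6.55-fold, adjusted p 0.000909 by limma), and Gss, glutathione synthetase, by 2.54 ± 0.50 (5.80-fold, adjusted p 0.00389). Against KOSR/LIF they were 3.52 and 2.61 higher, and 3.06 and 1.80 without replicate 3, called both ways. Of the 3 arrays of KOSR/LIF, 2 had Cdo1 well above background. Sqor, the sulfide oxidiser of mitochondria, was not well above background on any 2i/LIF array. Its fitted change in 2i/LIF against serum/LIF was -2.42 (interval -3.78 to -1.06, adjusted p 0.0184 by limma). With the 2i/LIF arrays set at the lowest signal well above background, serum/LIF was 2.74-fold brighter. That value leaves out the spread between arrays and is not a strict lower bound. With normexp the fitted change of Sqor was -0.44 (adjusted p 0.637 by limma). Mtr, methionine synthase, which turns homocysteine back to methionine, was higher than in serum/LIF in both other media, by 0.90 ± 0.19 in 2i/LIF (adjusted p 0.00576 by limma) and by 0.95 ± 0.21 in KOSR/LIF (adjusted p 0.0268). The KOSR/LIF call of Mtr was lost with normexp (0.70, adjusted p 0.164 by limma) and held without replicate 3 (0.83, adjusted p 0.0456). Ahcy, which releases homocysteine, was 1.20 ± 0.32 higher in 2i/LIF than in KOSR/LIF (adjusted p 0.0259 by limma), and was not called without KOSR/LIF replicate 3 (0.80, adjusted p 0.0855).

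**Figure D4:**
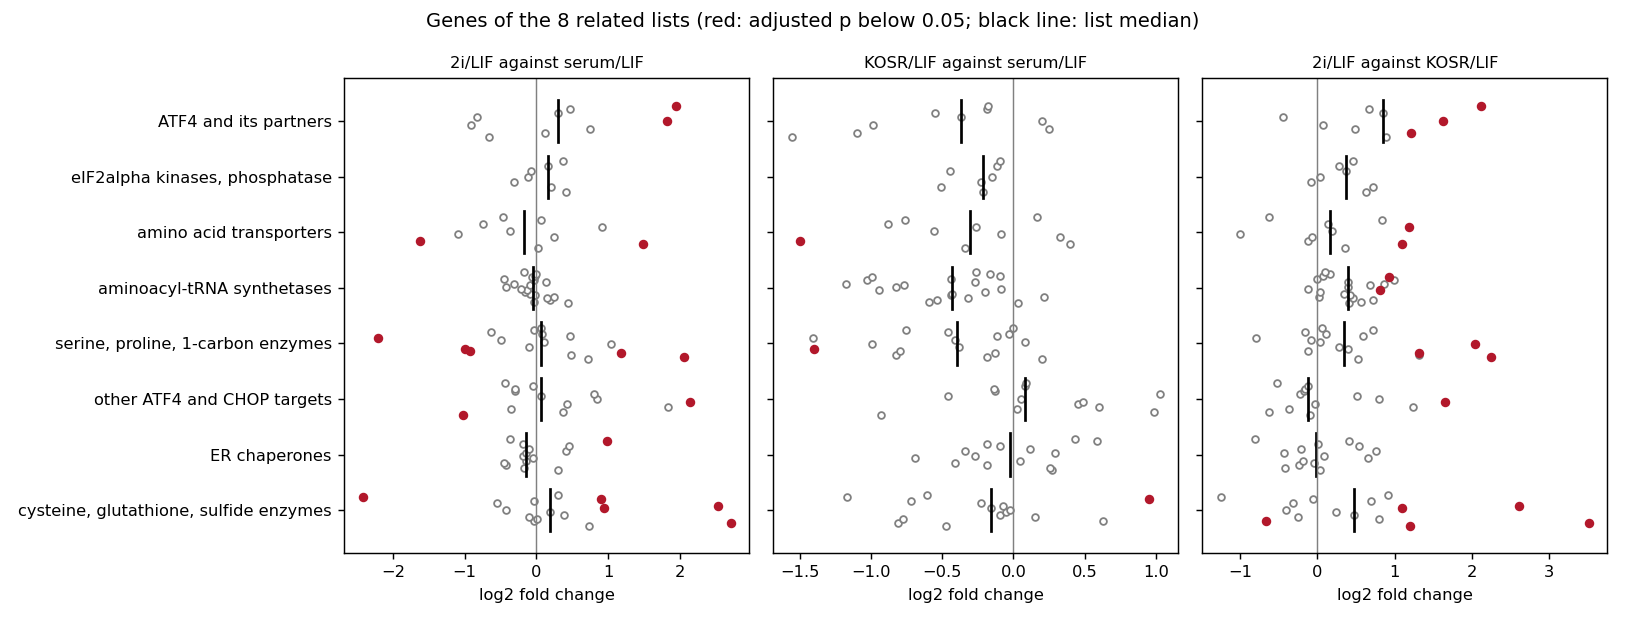
Log2 fold change of each tested gene of the 8 related lists in the 3 comparisons, red where the adjusted p was below 0.05, with the list median as a black line. The aminoacyl-tRNA synthetases lie around 0 in 2i/LIF against serum/LIF and mostly below 0 in KOSR/LIF against serum/LIF.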

How the data were processed

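Per the labels' protocols, RNA was extracted with Qiagen RNeasy and labelled with Cy3 for one-colour Agilent arrays. The deposited scanner files hold linear intensity after the scanner software's background subtraction (per the file headers, version 11.0.1.1 of Feature Extraction), with no scaling across arrays. The authors' value table is on the intensity scale too. Its columns share 1 largest value, and its making is not described in the sources used here. Unflagged spots were averaged per probe, log2 was taken of the deposited intensity, and each array's 75th percentile was subtracted. Probes were named by accession (27642 of 29109 RefSeq probes) through a GRCm38.p6 gene table, for names only. A probe passed if well above background, in at least 50% of its unflagged spots, on 3 of 11 arrays, which kept 16279 genes. This spot rule was picked after the data were seen, because it gave the gene number of an earlier description. Counting any spot gave 16299 genes. The brightest passing probe stood for a gene. One limma 3.58.1 model (R 4.3.3, lmFit and eBayes, two-sided, 8 residual and 3.52 prior degrees of freedom) covered all 11 arrays. It was also run on simulated data with independent normal noise. These held no scan-day, slide or dim-array structure, so that run cannot speak to such effects, and its outcome is not reported here. The number of arrays limits precision.

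Groups came from the sample titles. The normexp alternative (offset 50) used the median signal in place of the planned mean signal, which the files used here do not carry. A slide block leaves slides with 1 array without weight. The genes named are the 10 members, Atf4, up to 3 called genes with the largest change per list and comparison, and the 5 nearest to Asns and to Cth, of which 1 is not reported here. The members, lists and markers were chosen with earlier results of these data known.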

Additional observations from a re-analysis of the deposited data

Results flagged for a closer look

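The brighter Psat1 probe (A_55_P2052290) read 5.47 on 2i/LIF replicate 1, below the 5.86 to 5.99 of the other 4 2i/LIF arrays. The gap to the nearest of them was 0.752 of the whole range, above Dixon's 95% critical value of 0.71 for 5 samples. In the deposited table the column that best matched this array's scanner file, labelled replicate 4, held 5.27, the lowest of the 5 2i/LIF columns. Chance flags about 1 in 20 such groups, and 15 probes of the 10 genes and Atf4 were examined in the 1 group of that size.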

How the results depend on the processing

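Over the 10 genes and Atf4 in the 3 comparisons, 876 values kept their direction and their side of the threshold under the alternatives, 11 lost a call, 10 gained one and 38 changed sign, none of the last called. The cause of these changes was not tested. Between 2i/LIF and serum/LIF, 2 of the 10 genes were called, but 0 within scan day 3 and 1 with a replicate block. In KOSR/LIF against serum/LIF 0 were called, but 2 with trend and robust eBayes and 1 with slide as a block, within scan day 1, with only the 2 media compared and with probes above background on all 11 arrays (leaving out 1 array, 0 to 1). Of the related lists, in 2i/LIF against serum/LIF 17 were called, but 11 with normexp, 29 with slide as a block, 2 within scan day 3, 8 with the replicate block and 10 without 2i/LIF replicates 1 and 5 (leaving out 1 array, 10 to 21). In KOSR/LIF against serum/LIF it was 3, but 7 with trend and robust eBayes, 7 with the slide block, 6 with the scan day block and 1 with the replicate block (leaving out 1 array, 0 to 5). Between 2i/LIF and KOSR/LIF it was 16, but 10 within scan day 1 and 7 with the replicate block (leaving out 1 array, 9 to 17). The replicate block takes equal replicate numbers as pairs. By the titles, but not by the source names, replicates 1 to 3 of serum/LIF and 2i/LIF share their lines. For KOSR/LIF the titles give E14 for replicate 1 and HVJu5.1 for replicate 3, the reverse of the other media. By title, equal numbers therefore pair different lines there, except for replicate 2. The 2i/LIF replicates 4 and 5 have no partner. After each gene's mean in its medium was subtracted, same-numbered arrays of different media correlated at -0.20 to 0.18. Differently numbered ones correlated at -0.33 to 0.25, so these values gave no sign of pairing by number. Under that block Asns in 2i/LIF against serum/LIF gave 0.88 (adjusted p 0.0806 by limma), and in 2i/LIF against KOSR/LIF Psat1 gave 0.85 (0.156) and Atf4 1.12 (0.0896). Over all genes, 2722 calls in 2i/LIF against serum/LIF became 1753 with normexp, 1117 within scan day 3 and 1731 with probes above background on all arrays. In KOSR/LIF against serum/LIF 745 became 371 with normexp, 451 with no filter, 493 with all arrays required and 225 to 915 leaving out 1 array. Between 2i/LIF and KOSR/LIF 2388 became 1512 with normexp, 1408 with the replicate block and 1501 with all arrays required. Counting a probe as above background by any spot, chosen after seeing the data, gave 2, 0 and 4 members called.

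Signs changed as follows (log2). In 2i/LIF against serum/LIF, Psat1 was 0.027 with the scan day block, 0.047 within scan day 1, 0.020 without 2i/LIF replicates 1 and 5, 0.15 as a mean over probes and -0.12 to 0.042 leaving out 1 array. Mthfd2 was 0.025 without 2i/LIF replicates 1 and 5. With the slide block Ddit3 was -0.18 and Trib3 -0.25, and Trib3 was -0.073 within scan day 1. Chac1 was 0.32 in the deposited table, 0.10 without 2i/LIF replicates 1 and 5 and -0.64 to 0.25 leaving out 1 array, and Atf4 was -0.022 to 0.33. In KOSR/LIF against serum/LIF, Shmt2 was 0.040 in the table, Ddit3 -0.17 with the scan day block and -0.13 to 0.46 leaving out 1 array, and Chac1 0.012 with quantile normalization. In 2i/LIF against KOSR/LIF, Phgdh was 0.29 with normexp, 0.19 with the scan day block, 0.24 without 2i/LIF replicates 1 and 5, 0.044 as a mean over probes and -0.23 to 0.29 leaving out 1 array. Mthfd2 was -0.082 in the table, -0.10 with the slide block and -0.033 to 0.69 leaving out 1 array. Ddit3 was -0.54 with the slide block, -0.45 within scan day 1 and -0.041 to 0.59 leaving out 1 array. Chac1 was 0.33 in the table, 0.14 with the scan day block, 0.20 without 2i/LIF replicates 1 and 5 and -0.55 to 0.35 leaving out 1 array.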
